A study of Mus musculus with 12 samples.

Results

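The collagen chain genes are the genes of the deposited table whose symbol reads Col, a number, a and a number and nothing more, such as Col1a1. Of the 41009 gene symbols in the table, 44 were of this form. They were placed in 3 classes from what is known of the proteins: 11 fibrillar collagens, 8 collagens of the basement membrane (collagen IV with collagens XV and XVIII) and 25 others. The tissue was tumour grown in the mammary fat pad of female BALB/c mice. The tumours came from 4T1, an epithelial line of a BALB/c mammary carcinoma, carrying mCherry. Mice were aged 4 to 5 weeks, received the cells by injection and were randomised on day 7. Treatment was intraperitoneal, with VHH-OD-PD-1-Fc at 4.3 mg/kg, VHH-PD-1-Fc at 2.6 mg/kg, VHH-OD-Fc at 3.5 mg/kg or Ctrl-Fc at 5 mg/kg (called Ctrl here). A VHH is the domain with which the heavy-chain-only antibodies of camelids bind, and Fc is an antibody's constant region. PD-1 is a receptor that restrains T cells. The labels do not spell out OD, and the series title names endogenous digoxin-like substances as the target of its nanobodies. Each group had 3 libraries of poly(A) RNA from whole tumour. The labels do not say that they came from separate animals, and the spread behind each p-value may therefore be technical.

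A collagen is a triple helix of 3 chains whose repeating glycine allows the helix to close. Fibrillar collagens pack side by side into the fibres that give tissue its tensile strength, and collagen IV joins into sheets that underlie epithelium and sheathe vessels. In mammary tumours fibroblasts make most of the fibrillar collagen, while endothelial cells, pericytes and epithelial cells make much of the collagen IV. In RNA from whole tumour, fewer cells of a type and less RNA per cell cannot be told apart.

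Levels are given as FPKM, the fragments scaled to transcript length and library size, as deposited. Depth, in mega-fragments (M), was estimated at 22.0 to 26.1 M for the 6 libraries with the PD-1 arm, and for the 6 without it at 23.7 to 30.7 M. The FPKM values of a library summed to 388142 to 401179 with the PD-1 arm and to 327792 to 345596 without it, with no overlap. The labels give no batch, so a technical difference between these 6 and 6 libraries cannot be told apart from the arm. Libraries of VHH-OD-PD-1-Fc were the most alike: the median SD of a collagen gene (log2 of FPKM + 1) was 0.0426 there, 0.316 in VHH-PD-1-Fc, 0.172 in VHH-OD-Fc and 0.321 in Ctrl. Fragments were also estimated from FPKM, transcript length and depth, for genes with 1 annotated transcript and a mean of 300 or more. For each pair of libraries, the squared difference of a gene was divided by its counting variance. The median over genes was taken relative to that of chi-square with 1 degree of freedom. This was 3.74 to 4.77 in VHH-OD-PD-1-Fc, 54.7 to 62.2 in VHH-PD-1-Fc, 15.1 to 28.3 in VHH-OD-Fc and 13.6 to 43.7 in Ctrl. Counting error alone gives about 1 if the estimated depth holds. Such a value does not show whether libraries are separate samples, which was not tested. All groups were analysed as 3 samples as labelled, and results of VHH-OD-PD-1-Fc are also given with it as a lone sample. Of the other libraries 3 stood apart. VHH-PD-1-Fc replicate 2 had the highest Col18a1 of the 12. VHH-OD-Fc replicate 2 had the highest summed level of 4 skeletal muscle markers, 1819 FPKM, against 4.24 to 224.8 FPKM in the other 11. Ctrl replicate 1 had the lowest Col5a2 and Col12a1 among VHH-OD-Fc and Ctrl. Their part in the results was examined by leaving them out. As 2 of the 3 were named by collagen values, collagen calls that arise without them are no separate evidence. VHH-PD-1-Fc replicate 1, with the lowest fibrillar share of collagen FPKM of the 12 libraries (34.0%), was not among the 3.

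Of the 44 genes, 23 reached 1 FPKM in 3 or more libraries and were tested, among 14306 genes in all. These were 8 fibrillar, 5 basement membrane and 10 other collagens. The 21 genes under this filter included the cartilage collagen Col2a1 and the Alport syndrome genes Col4a3 and Col4a4, which reached at most 0.0513, 0.117 and 0.109 FPKM. By the mean of all 12 libraries Col1a1 was the highest collagen, at 350.3 FPKM. Col3a1 (125.4 FPKM) and Col1a2 (115.3 FPKM) followed, then Col7a1 (92.2 FPKM) and Col18a1 (88.1 FPKM). The next levels were those of Col4a1 (75.8 FPKM), Col4a2 (71.2 FPKM) and Col6a1 (67.7 FPKM). Those of Col3a1 and Col1a2, and those from Col7a1 to Col6a1, overlapped between libraries. Col11a2, Col23a1, Col27a1, Col20a1 and Col4a5 were the lowest tested members, with means of 0.867 to 1.34 FPKM. The tested members had long transcripts, with a median of 6048 bases, against 2884 bases among all genes tested. Their median GC content was 56.4%, against 49.8%.

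**Figure D1:**
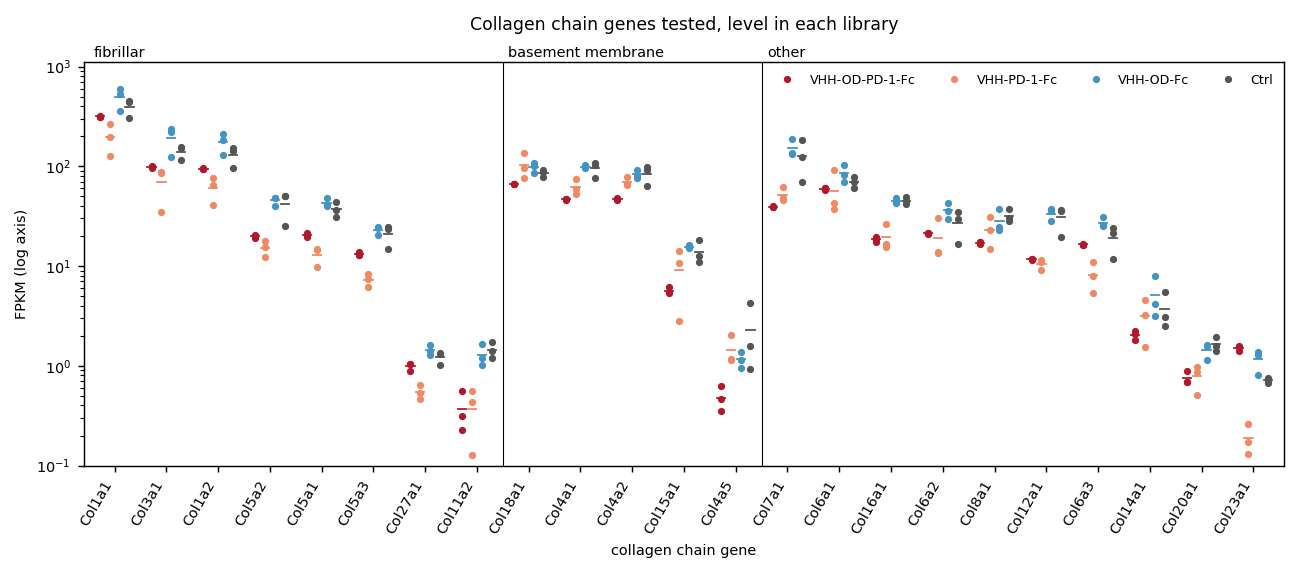
FPKM (log axis) of the 23 tested collagen chain genes in each of the 12 libraries, ordered by class and mean level; each point is a library and each short line the mean of 3 libraries. The VHH-OD-PD-1-Fc points nearly coincide for most genes, and most fibrillar genes have their lowest points in VHH-PD-1-Fc.

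The plot of levels by library shows the range of the family, from 128 to 589 FPKM for Col1a1 to below 1 FPKM for Col23a1 in VHH-PD-1-Fc and Ctrl. Collagen chains together held 0.233% to 0.235% of the FPKM sum in VHH-OD-PD-1-Fc libraries and 0.177% to 0.240% in VHH-PD-1-Fc libraries. The share was 0.448% to 0.563% in VHH-OD-Fc libraries and 0.327% to 0.481% in Ctrl libraries. Every library with the PD-1 arm was thus below every library without it. The exact permutation test (two-sided) gave p = 0.1 for each of the 4 pairs of a group with the arm and a group without it, the smallest p that 3 against 3 libraries allow.

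Both groups with the PD-1 arm had lower summed collagen transcript levels than both groups without it. In VHH-PD-1-Fc tumours all 8 tested fibrillar collagens fell against Ctrl, while 1 of the 5 basement membrane collagens did. With only the libraries of these groups in the fit, or with length and GC trends removed, 6 of the 8 fibrillar genes passed (without Col3a1 and Col27a1) and no basement membrane gene fell. In VHH-OD-PD-1-Fc tumours 4 of 8 fibrillar and 4 of 5 basement membrane collagens fell against Ctrl. No collagen was called between VHH-OD-Fc and Ctrl. The 3 comparisons against Ctrl share the same 3 Ctrl libraries, so their values stand side by side and not as separate evidence.

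Calls rest on limma across all 14306 genes, with the adjusted p of Benjamini and Hochberg under 0.05. In VHH-PD-1-Fc against Ctrl, 15 of the 23 collagens were lower and none was higher, where 32.3% of all genes tested were lower and 14.6% higher. Against Ctrl, VHH-OD-PD-1-Fc tumours had 13 collagens lower and 1 higher, with 27.1% of all genes lower and 15.1% higher. VHH-PD-1-Fc tumours had 16 collagens lower and none higher than VHH-OD-Fc tumours (28.4% and 14.2% of all genes). VHH-OD-PD-1-Fc tumours had 16 lower and none higher than VHH-OD-Fc tumours (24.5% and 15.4%). Between VHH-OD-PD-1-Fc and VHH-PD-1-Fc, 1 collagen, Col23a1, was higher in VHH-OD-PD-1-Fc and none lower (0.538% and 0.301%). For VHH-OD-Fc against Ctrl no collagen was called, and 0.0% of genes.

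VHH-OD-PD-1-Fc was also taken as a lone sample, the mean of its 3 libraries. The median log2 fold change of the collagens was then -0.59 against Ctrl and -0.75 against VHH-OD-Fc. That of all genes was -0.14 and -0.11. Far fewer collagens, and far fewer of all genes, were called in both comparisons. Most of these calls thus depend on counting the 3 libraries as separate samples. The lone sample is then assumed to vary like the other groups.

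The median log2 fold change of the 23 collagens was -0.74 in VHH-PD-1-Fc against Ctrl, where that of all genes was -0.19. In VHH-OD-PD-1-Fc relative to Ctrl it was -0.59, with -0.14 for all genes. VHH-OD-PD-1-Fc against VHH-OD-Fc gave -0.75 and -0.11, and VHH-PD-1-Fc against VHH-OD-Fc gave -0.93 and -0.16. The downward median of all genes depends on the scale of the values. Rescaled to TPM, the median of all genes was -0.43 in VHH-PD-1-Fc against Ctrl, and 47.5% of genes were lower and 9.41% higher. Scaled by the median of ratios, it was -0.01, with 20.1% lower and 22% higher. Under these scalings 17 and 13 collagens were lower in that comparison and none was higher. For VHH-OD-PD-1-Fc relative to Ctrl, TPM gave 43.3% of genes lower and 9.89% higher, and the median of ratios 18.1% and 21%. There 15 and 11 collagens were lower and 1 higher. For VHH-OD-PD-1-Fc against VHH-OD-Fc the same scalings gave 39.3% lower and 9.57% higher, and 17.7% and 20.2%, and for VHH-PD-1-Fc against VHH-OD-Fc 44.5% and 9.14%, and 19.2% and 20.8%. The collagens called lower then numbered 21 and 11, and 19 and 14, and none was higher.

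**Figure D2:**
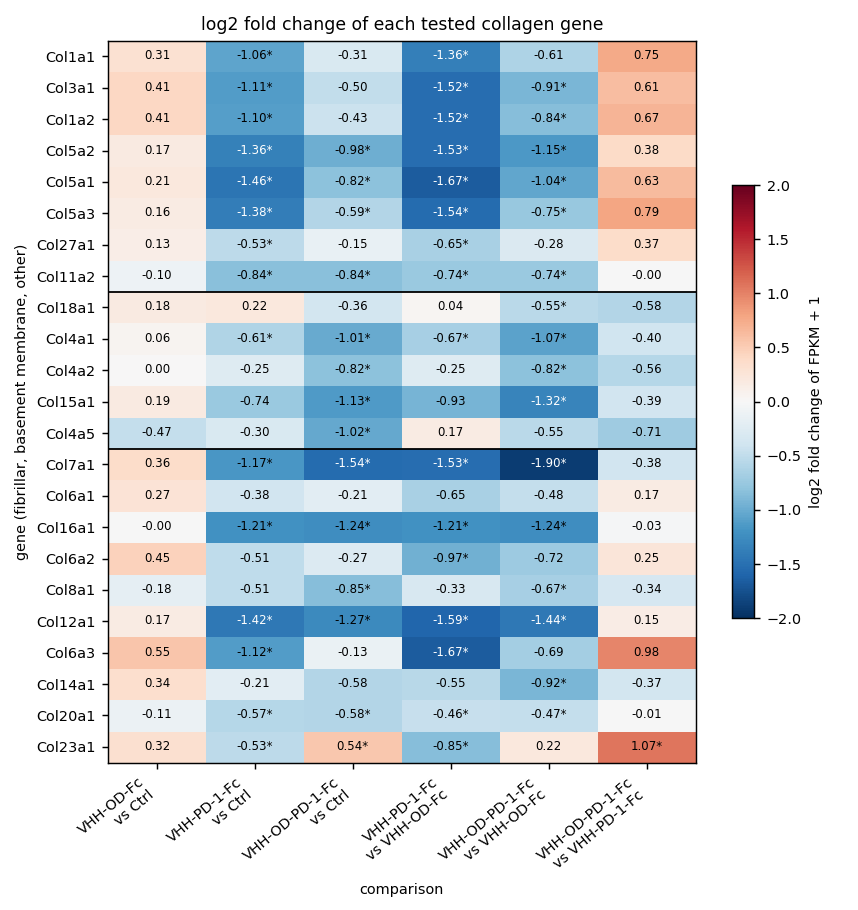
log2 fold change of FPKM + 1 of each tested collagen gene (rows, by class) in 6 comparisons (columns); a star marks an adjusted p under 0.05. The VHH-PD-1-Fc columns are blue through the fibrillar class and mostly paler in the basement membrane class, and the last column, VHH-OD-PD-1-Fc against VHH-PD-1-Fc, is red in the fibrillar class and blue in the basement membrane class.

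The map of fold changes gives each member in each comparison. All 6 libraries with the PD-1 arm lay below all 6 without it for 10 of the 23 collagens, where 22.7% of all genes did so. The 10 were Col3a1, Col5a1, Col5a2, Col5a3 and Col11a2 of the fibrillar class, Col4a1, and Col7a1, Col12a1, Col16a1 and Col20a1. For no collagen did all 6 lie above, where 11.1% of genes did. In single comparisons, the libraries of VHH-PD-1-Fc and Ctrl did not overlap for 15 collagens, all lower in VHH-PD-1-Fc, where 33.7% of genes were lower and 15.5% higher without overlap. Those of VHH-OD-PD-1-Fc and Ctrl did not overlap for 18, of which 17 were lower and Col23a1 higher in VHH-OD-PD-1-Fc (41.4% and 23.0% of genes). Those of VHH-OD-PD-1-Fc and VHH-OD-Fc did not for all 23, of which 22 were lower and Col23a1 higher in VHH-OD-PD-1-Fc (40.4% and 25.3%), and those of VHH-PD-1-Fc and VHH-OD-Fc not for 16, all lower in VHH-PD-1-Fc (31.6% and 15.9%). Between VHH-OD-Fc and Ctrl 2 did not overlap, Col23a1 and Col6a3, both higher in VHH-OD-Fc (6.7% lower and 3.5% higher).

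Collagen I, the main protein of connective tissue fibres, is built from the products of Col1a1 and Col1a2. Col1a1 had 315, 319.8 and 312 FPKM in VHH-OD-PD-1-Fc, 128, 263 and 196 in VHH-PD-1-Fc, 589, 529 and 362 in VHH-OD-Fc and 302, 441 and 447 in Ctrl. Col1a2 had 93.9, 94.3 and 96.5 FPKM in VHH-OD-PD-1-Fc, 41.1, 76.7 and 65.4 in VHH-PD-1-Fc, 210.1, 183 and 130.2 in VHH-OD-Fc and 96.4, 143 and 153 in Ctrl. The VHH-PD-1-Fc libraries were below the others for both genes, without overlap. Col1a1 fell in VHH-PD-1-Fc against Ctrl, with a log2 fold change of -1.06 (adjusted p = 0.00689, SE 0.26), and so did Col1a2, at -1.10 (adjusted p = 0.00426, SE 0.25). In VHH-OD-PD-1-Fc relative to Ctrl neither passed the test, at -0.31 (adjusted p = 0.358, SE 0.26) and -0.43 (adjusted p = 0.177, SE 0.25). Replicate 1 of Ctrl was lower than the VHH-OD-PD-1-Fc libraries for Col1a1 and lay among them for Col1a2. The ratio of Col1a1 to Col1a2 FPKM was 3.24 to 3.39 in VHH-OD-PD-1-Fc, 2.99 to 3.43 in VHH-PD-1-Fc, 2.78 to 2.89 in VHH-OD-Fc and 2.92 to 3.13 in Ctrl.

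Col1a2 carried a promoter window in RefSeq (GRCm38.p6), 250 bases before to 50 after the annotated start, and is shown as a highly expressed gene of the fibrillar class. It lies at chr6:4505368-4505667 on the + strand. Capitals mark matches, on either strand, to GGGCGG (a GC box) and CCAAT.
Col1a2: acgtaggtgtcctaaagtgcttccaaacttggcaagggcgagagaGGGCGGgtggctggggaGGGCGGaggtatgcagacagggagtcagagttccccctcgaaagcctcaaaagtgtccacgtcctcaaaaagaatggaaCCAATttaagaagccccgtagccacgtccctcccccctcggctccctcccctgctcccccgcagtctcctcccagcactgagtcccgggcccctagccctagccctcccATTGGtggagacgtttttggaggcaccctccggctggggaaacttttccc
The Col1a2 window holds GC boxes and CCAAT matches and no TATAAA or TGANTCA (the AP-1 motif) on either strand. The 44 symbols matched 38 such windows of 35 genes, 19 of them tested. GGGCGG was in 60.5% of these collagen windows, against 35.7% of all 32851 windows of that length. CCAAT was in 34.2% against 37.4%, TATAAA in 13.2% against 13.6% and TGANTCA in 2.63% against 7.81%. Such matches are descriptions of the letters, not sites.

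Collagen III, made from Col3a1, assembles with collagen I in extensible tissue such as vessel wall. Col3a1 had 98.7, 96.4 and 100.3 FPKM in VHH-OD-PD-1-Fc, 34.7, 87.9 and 85.6 in VHH-PD-1-Fc, 220.4, 234 and 125 in VHH-OD-Fc and 115, 155 and 151 in Ctrl. It was lower in VHH-PD-1-Fc than in Ctrl, with a log2 fold change of -1.11 (adjusted p = 0.018, SE 0.33). That call was lost without Ctrl replicate 2, at -1.03 (adjusted p = 0.0528), and without Ctrl replicate 3, at -1.05 (adjusted p = 0.054). It was also lost with only these groups in the fit, at -1.11 (adjusted p = 0.0555). Scaling by the median of ratios, the removal of length and GC trends and a fit with no filter on low values also ended it. Against Ctrl, VHH-OD-PD-1-Fc differed by -0.50 (adjusted p = 0.243, SE 0.33), which did not pass, although the 3 libraries of each group did not overlap.

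Collagen V starts and limits the thickness of collagen I fibres, and its chains are the products of Col5a1, Col5a2 and Col5a3. Col5a1 had 21.5, 19.6 and 20.3 FPKM in VHH-OD-PD-1-Fc, 9.75, 14.5 and 14.9 in VHH-PD-1-Fc, 47.6, 41.4 and 40.2 in VHH-OD-Fc and 31.3, 36.8 and 43.8 in Ctrl. Its VHH-PD-1-Fc libraries were below the VHH-OD-PD-1-Fc libraries, which were below all VHH-OD-Fc and Ctrl libraries. Against Ctrl, Col5a1 fell, with log2 fold changes of -1.46 (adjusted p = 0.00012, SE 0.16) in VHH-PD-1-Fc and -0.82 (adjusted p = 0.00235, SE 0.16) in VHH-OD-PD-1-Fc. Col5a2, the partner chain of Col5a1, had 20.2, 19.1 and 20.6 FPKM in VHH-OD-PD-1-Fc, 12.3, 17.9 and 15.5 in VHH-PD-1-Fc, 48.5, 39.9 and 48.2 in VHH-OD-Fc and 25.5, 50.5 and 50.2 in Ctrl. It too had no overlap between the libraries with and without the PD-1 arm, and fell, at -1.36 (adjusted p = 0.000962, SE 0.23) in VHH-PD-1-Fc and -0.98 (adjusted p = 0.00639, SE 0.23) in VHH-OD-PD-1-Fc relative to Ctrl. Col5a3, a chain of restricted tissues, had 12.96, 13.7 and 13.01 FPKM in VHH-OD-PD-1-Fc, 7.33, 8.35 and 6.11 in VHH-PD-1-Fc, 20.6, 24.3 and 24.1 in VHH-OD-Fc and 14.7, 23.6 and 24.4 in Ctrl. Its values were ordered like those of Col5a1, except that Ctrl replicate 1 lay close above the VHH-OD-PD-1-Fc libraries. Col5a3 fell, at -1.38 (adjusted p = 0.000212, SE 0.17) in VHH-PD-1-Fc against Ctrl and at -0.59 (adjusted p = 0.0181, SE 0.17) in VHH-OD-PD-1-Fc. The second call was lost without either VHH-OD-PD-1-Fc replicate 1, at -0.58 (adjusted p = 0.0537), or replicate 3, at -0.58 (adjusted p = 0.0528), and without Ctrl replicate 2, at -0.49 (adjusted p = 0.0669), or replicate 3, at -0.47 (adjusted p = 0.075). Scaling by the median of ratios, quantile normalization and the removal of length and GC trends also ended this call.

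Col11a2 and Col27a1, fibrillar chains best known from cartilage, were near the filter. Col11a2 was 0.127 to 0.556 FPKM in the 6 libraries with the PD-1 arm and 1.01 to 1.71 FPKM in the 6 without it. It was lower than Ctrl in VHH-PD-1-Fc (log2 fold change -0.84) and in VHH-OD-PD-1-Fc (-0.84). Col27a1 was 0.896 to 1.05 FPKM in VHH-OD-PD-1-Fc, 0.461 to 0.641 in VHH-PD-1-Fc, 1.29 to 1.61 in VHH-OD-Fc and 1.02 to 1.34 in Ctrl. It was called lower in VHH-PD-1-Fc against Ctrl (-0.53) and not in VHH-OD-PD-1-Fc (-0.15). Against VHH-OD-Fc, all 8 fibrillar genes were called lower in VHH-PD-1-Fc, with a median log2 fold change of -1.52. The same 8 in VHH-OD-PD-1-Fc against VHH-OD-Fc had a median of -0.80, with 6 called lower and Col1a1 (-0.61) and Col27a1 (-0.28) not called. The called members were Col5a1 (-1.67), Col5a3 (-1.54), Col12a1 (-1.59), Col16a1 (-1.21), Col5a2 (-1.53), Col6a3 (-1.67), Col23a1 (-0.85), Col1a2 (-1.52), Col27a1 (-0.65), Col7a1 (-1.53), Col1a1 (-1.36), Col3a1 (-1.52), Col4a1 (-0.67), Col11a2 (-0.74), Col20a1 (-0.46) and Col6a2 (-0.97) in VHH-PD-1-Fc against VHH-OD-Fc. In VHH-OD-PD-1-Fc against VHH-OD-Fc they were Col16a1 (-1.24), Col4a1 (-1.07), Col12a1 (-1.44), Col7a1 (-1.90), Col5a1 (-1.04), Col4a2 (-0.82), Col5a2 (-1.15), Col5a3 (-0.75), Col11a2 (-0.74), Col1a2 (-0.84), Col15a1 (-1.32), Col20a1 (-0.47), Col18a1 (-0.55), Col3a1 (-0.91), Col8a1 (-0.67) and Col14a1 (-0.92). Leaving out 1 library ended some of these calls in VHH-OD-PD-1-Fc, with 9 of the 12 such fits doing so for Col8a1, 8 each for Col3a1 and Col14a1, 5 for Col18a1 and 4 each for Col1a2, Col15a1 and Col20a1. In VHH-PD-1-Fc against VHH-OD-Fc 4 did so for Col6a2 and 3 for Col20a1. Of the fibrillar class Col5a1 had the smallest p in both, at -1.67 (adjusted p = 9.57e-05, SE 0.16) in VHH-PD-1-Fc and -1.04 (adjusted p = 0.000792, SE 0.16) in VHH-OD-PD-1-Fc against VHH-OD-Fc.

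Markers of fibroblasts were read beside the fibrillar genes. The summed level of 8 fibroblast markers was 98.2 to 101.7 FPKM in VHH-OD-PD-1-Fc, 60.2 to 78.9 FPKM in VHH-PD-1-Fc, 121.9 to 199.2 FPKM in VHH-OD-Fc and 112.7 to 122.6 FPKM in Ctrl. Of the 8, 5 were lower in VHH-PD-1-Fc than in Ctrl (Pdgfra, Dpt, Pdgfrb, Dcn and Fap) and 3 in VHH-OD-PD-1-Fc (Pdgfra, Dpt and Pdgfrb), and none was higher, where 32.3% and 27.1% of all genes were lower. Against VHH-OD-Fc, 7 were lower in VHH-PD-1-Fc and 6 in VHH-OD-PD-1-Fc (28.4% and 24.5% of all genes). Thy1, the main part of the sum in VHH-OD-PD-1-Fc, had 55.8 to 58.4 FPKM in VHH-OD-PD-1-Fc and 38.0 to 54.1 FPKM in Ctrl, without overlap, and did not pass, at 0.28 (adjusted p = 0.118, SE 0.14). No fibroblast marker was at 0 in any library. The part of fibroblast number in the collagen values was not tested.

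Markers of 4 further cell types were summed in the same way. The 5 markers of 4T1 and other epithelium summed to 2427 to 2486 FPKM in VHH-OD-PD-1-Fc, 1795 to 3474 in VHH-PD-1-Fc, 2119 to 2241 in VHH-OD-Fc and 1130 to 2490 in Ctrl. Krt8 and Krt18 made up most of each sum, and Krt14 ran from 0.0261 FPKM in VHH-PD-1-Fc replicate 2 to 26.8 FPKM in Ctrl replicate 2. Of the 5 markers only Krt18 was called against Ctrl, higher in VHH-PD-1-Fc, where 14.6% of all genes were higher. Only Krt14 was called against VHH-OD-Fc, lower in VHH-PD-1-Fc, where 28.4% of all genes were lower. Both are near the shares of all genes. Krt18 had 615 FPKM in Ctrl replicate 1 and 1363 and 1035 FPKM in Ctrl replicates 2 and 3. The 5 leukocyte markers summed to 508.9 to 538.8 FPKM in VHH-OD-PD-1-Fc, 191 to 353 in VHH-PD-1-Fc, 143 to 504 in VHH-OD-Fc and 202 to 254 in Ctrl. S100a8 was most of this sum, with 507, 479.7 and 506.9 FPKM in VHH-OD-PD-1-Fc, so the sum does not measure leukocytes as a whole. Ptprc was lower in VHH-OD-PD-1-Fc and VHH-PD-1-Fc than in Ctrl (27.1% and 32.3% of all genes) and than in VHH-OD-Fc (24.5% and 28.4%). S100a8 was higher in VHH-OD-PD-1-Fc relative to Ctrl (15.1% of all genes). The 4 adipocyte markers summed to 2.18 to 2.62 FPKM in VHH-OD-PD-1-Fc, 0.242 to 5.24 in VHH-PD-1-Fc, 10.7 to 36.9 in VHH-OD-Fc and 2.49 to 15.0 in Ctrl. Neither of the 2 tested, Cidec and Adipoq, was called against Ctrl. Both were lower than VHH-OD-Fc in VHH-OD-PD-1-Fc (-2.38 and -2.18) and in VHH-PD-1-Fc (-2.83 and -2.36), where 24.5% and 28.4% of all genes were lower. The 4 skeletal muscle markers summed to 154 to 160.2 FPKM in VHH-OD-PD-1-Fc, 4.24 to 28.3 in VHH-PD-1-Fc, 11.0 to 1819 in VHH-OD-Fc and 6.70 to 222 in Ctrl, and none was called in these comparisons. At 0 were 1 adipocyte and 1 leukocyte marker in VHH-OD-PD-1-Fc replicate 1, and 1 skeletal muscle marker in VHH-PD-1-Fc replicate 2 and in Ctrl replicate 1. The part of these cells in the collagen values was not tested.

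Col4a1 and Col4a2 form the collagen IV network of nearly all basement membranes. Their annotated start sites lie 21 bases apart on opposite strands of chromosome 8, so that the first bases of both transcripts overlap and transcription then runs apart. RefSeq windows (GRCm38.p6) cover chr8:11312777-11313076 on the - strand for Col4a1 and chr8:11312555-11312854 on the + strand for Col4a2. They are shown because the windows of this pair overlap, and capitals mark the 78 bases that the windows share, read from opposite strands.
Col4a1: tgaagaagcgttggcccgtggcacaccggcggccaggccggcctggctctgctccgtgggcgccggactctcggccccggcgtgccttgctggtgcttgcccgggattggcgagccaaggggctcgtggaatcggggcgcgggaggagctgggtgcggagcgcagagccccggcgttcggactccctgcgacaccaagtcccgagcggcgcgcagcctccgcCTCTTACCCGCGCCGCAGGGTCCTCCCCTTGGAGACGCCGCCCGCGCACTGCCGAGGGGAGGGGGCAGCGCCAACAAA
Col4a2: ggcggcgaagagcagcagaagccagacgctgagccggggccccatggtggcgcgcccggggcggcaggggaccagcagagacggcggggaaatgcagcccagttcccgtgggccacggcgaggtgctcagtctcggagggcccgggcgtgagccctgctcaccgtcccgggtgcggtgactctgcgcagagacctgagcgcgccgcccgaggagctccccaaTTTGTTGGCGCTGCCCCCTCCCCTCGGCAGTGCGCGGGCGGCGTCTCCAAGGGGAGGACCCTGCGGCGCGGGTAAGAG
Neither window holds TATAAA, and both are GC-rich, at 74.0% for Col4a1 and 73.7% for Col4a2.

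Col4a1 had 47.3, 46.5 and 45.98 FPKM in VHH-OD-PD-1-Fc, 75.1, 52.3 and 59.6 in VHH-PD-1-Fc, 97.3, 95.2 and 104 in VHH-OD-Fc and 76.1, 107 and 104 in Ctrl. Col4a2 had 45.8, 46.6 and 47.9 FPKM in VHH-OD-PD-1-Fc, 78.4, 66.8 and 64.3 in VHH-PD-1-Fc, 81.7, 76.6 and 92.02 in VHH-OD-Fc and 63.5, 99.1 and 91.2 in Ctrl. In VHH-OD-PD-1-Fc both genes lay between 45.8 and 47.9 FPKM, below every other library. Col4a1 in VHH-PD-1-Fc lay between the VHH-OD-PD-1-Fc libraries and those of VHH-OD-Fc and Ctrl, without overlap, while Col4a2 in VHH-PD-1-Fc overlapped Ctrl through Ctrl replicate 1. In VHH-OD-PD-1-Fc relative to Ctrl both genes fell, Col4a1 at -1.01 (adjusted p = 0.000549, SE 0.15) and Col4a2 at -0.82 (adjusted p = 0.00181, SE 0.15). In VHH-PD-1-Fc against Ctrl, Col4a1 fell, at -0.61 (adjusted p = 0.00663, SE 0.15) and Col4a2 did not pass, at -0.25 (adjusted p = 0.187, SE 0.15). Col4a1 in VHH-PD-1-Fc lost its call under 3 of 24 other settings, among them the removal of length and GC trends, at -0.29 (adjusted p = 0.141).

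The ratio of Col4a1 to Col4a2 FPKM, formed within each library, does not change with library scaling. Trends with length or GC content were not removed from this ratio. It was 0.960 to 1.03 in VHH-OD-PD-1-Fc, 0.782 to 0.958 in VHH-PD-1-Fc, 1.12 to 1.24 in VHH-OD-Fc and 1.08 to 1.20 in Ctrl. The 6 libraries with the PD-1 arm (0.782 to 1.03) were below the 6 without it (1.08 to 1.24). For each of the 4 pairs of a group with the arm and a group without it, the exact permutation test (two-sided) gave p = 0.1, the smallest possible with 3 libraries each. The ratio was looked at after the values of both genes were known.

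Col18a1, whose product is a heparan sulphate proteoglycan of basement membranes and the source of endostatin, differed from Col4a1 in its VHH-PD-1-Fc values. It had 65.99, 66.9 and 66.1 FPKM in VHH-OD-PD-1-Fc, 97.2, 135 and 75.8 in VHH-PD-1-Fc, 107, 101 and 84.99 in VHH-OD-Fc and 91.7, 87.6 and 78.2 in Ctrl. The VHH-OD-PD-1-Fc libraries lay below all 9 others, within 1 FPKM of each other, and VHH-PD-1-Fc was the most spread group. Against Ctrl, Col18a1 differed by -0.36 (adjusted p = 0.11, SE 0.17) in VHH-OD-PD-1-Fc and 0.22 (adjusted p = 0.318, SE 0.17) in VHH-PD-1-Fc, and neither passed. It was the only tested collagen with a positive fold change in VHH-PD-1-Fc against Ctrl, and it was called higher with length and GC trends removed, at 0.53 (adjusted p = 0.0222), and without VHH-PD-1-Fc replicate 3, at 0.41 (adjusted p = 0.0383). Against VHH-OD-Fc it fell in VHH-OD-PD-1-Fc, at -0.55 (adjusted p = 0.0276, SE 0.17), a call lost without any of the VHH-OD-PD-1-Fc replicates or VHH-OD-Fc replicate 1 or 2 (log2 fold changes of -0.48 to -0.55, adjusted p = 0.0667 to 0.091).

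Col15a1, the related multiplexin at vessels and muscle, was 5.38 to 6.18 FPKM in VHH-OD-PD-1-Fc, 2.79 to 14.0 in VHH-PD-1-Fc, 15.1 to 16.3 in VHH-OD-Fc and 10.9 to 18.4 in Ctrl. It was called lower in VHH-OD-PD-1-Fc relative to Ctrl, at -1.13 (adjusted p = 0.0397, SE 0.40). The adjusted p lay near the threshold, and leaving out any replicate of VHH-OD-PD-1-Fc, VHH-OD-Fc or Ctrl, 9 libraries in all, ended the call (0.0507 to 0.129). Col4a5, a chain of kidney and epithelial basement membranes, had 0.350, 0.623 and 0.465 FPKM in VHH-OD-PD-1-Fc, 2.05, 1.15 and 1.16 in VHH-PD-1-Fc, 1.39, 0.939 and 1.16 in VHH-OD-Fc and 4.29, 1.59 and 0.937 in Ctrl. It was lower in VHH-OD-PD-1-Fc, at -1.02 (adjusted p = 0.0198, SE 0.30), with Ctrl replicate 1 far above the other libraries. The call was lost without VHH-OD-PD-1-Fc replicate 1, at -0.95 (adjusted p = 0.0626), or replicate 3, at -1.01 (adjusted p = 0.0523). The remaining chains of the class, Col4a3, Col4a4 and Col4a6, stayed below 0.12 FPKM in every library.

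As a class, the 5 tested basement membrane collagens had a median log2 fold change of -1.01 in VHH-OD-PD-1-Fc relative to Ctrl and -0.30 in VHH-PD-1-Fc against Ctrl. Against VHH-OD-Fc, 4 were called lower in VHH-OD-PD-1-Fc (median -0.82) and 1, Col4a1, in VHH-PD-1-Fc (median -0.25). With length and GC trends removed, the median in VHH-PD-1-Fc against Ctrl was 0.02. Markers of the cells that line and wrap vessels were read beside this class. The 6 endothelial markers summed to 16.1 to 18.2 FPKM in VHH-OD-PD-1-Fc, 14.1 to 18.4 in VHH-PD-1-Fc, 29.8 to 40.8 in VHH-OD-Fc and 24.5 to 35.2 in Ctrl. Kdr, Pecam1, Cdh5 and Tie1, 4 of the 5 tested, were lower than Ctrl in VHH-OD-PD-1-Fc, and these 4 were also lower in VHH-PD-1-Fc. The 7 pericyte and smooth muscle markers summed to 52.0 to 55.1 FPKM in VHH-OD-PD-1-Fc, 29.9 to 74.4 in VHH-PD-1-Fc, 92.3 to 105.0 in VHH-OD-Fc and 66.6 to 100.3 in Ctrl. Of these 7, 4 were lower than Ctrl in each group with the arm, and no marker of these types was higher, where VHH-OD-PD-1-Fc had 27.1% and VHH-PD-1-Fc 32.3% of all genes lower. The pericyte and smooth muscle sums of VHH-PD-1-Fc overlapped those of Ctrl. Against VHH-OD-Fc, 4 endothelial and 5 pericyte markers were lower in each group with the arm (24.5% of all genes in VHH-OD-PD-1-Fc and 28.4% in VHH-PD-1-Fc). Their part in the collagen values was not tested.

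**Figure D3:**
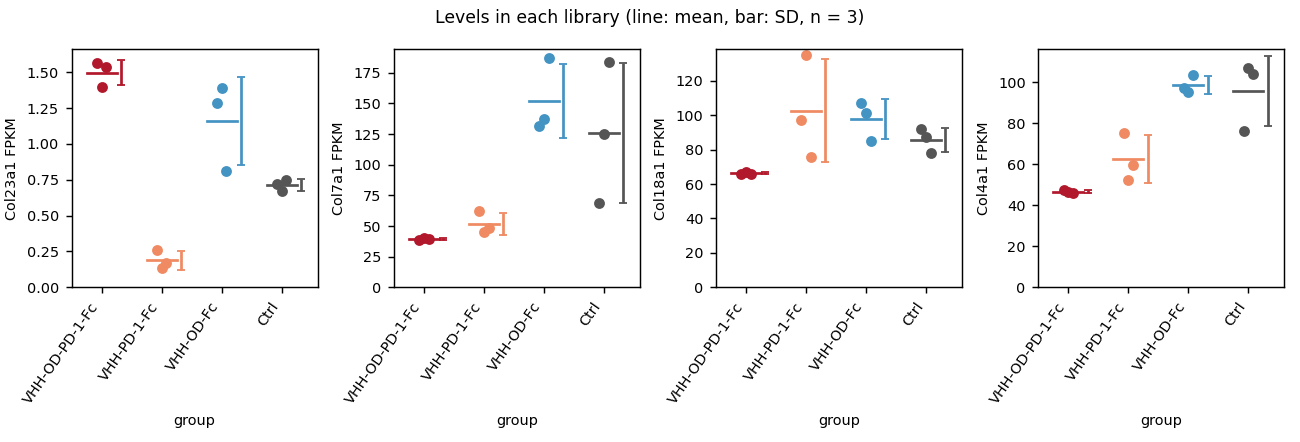
FPKM of Col23a1, Col7a1, Col18a1 and Col4a1 in each library by group; points are libraries, lines means and bars SD (n = 3). Col23a1 has its lowest values in VHH-PD-1-Fc and its highest mean in VHH-OD-PD-1-Fc, while Col7a1, Col18a1 and Col4a1 have their lowest values in VHH-OD-PD-1-Fc.

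The plot of 4 genes with unlike patterns includes Col7a1 and Col23a1 of the third class. Col7a1 makes the anchoring fibrils that fasten epithelial basement membrane to the tissue beneath. Col7a1 had 38.7, 40.2 and 39.2 FPKM in VHH-OD-PD-1-Fc, 62.3, 45.4 and 48.01 in VHH-PD-1-Fc, 132, 137 and 187 in VHH-OD-Fc and 68.9, 125 and 184 in Ctrl. Both groups with the PD-1 arm were below all libraries without it. Col7a1 fell against Ctrl, at -1.54 (adjusted p = 0.00176, SE 0.28) in VHH-OD-PD-1-Fc and -1.17 (adjusted p = 0.00687, SE 0.28) in VHH-PD-1-Fc. It also fell in VHH-OD-PD-1-Fc against VHH-OD-Fc, at -1.90 (adjusted p = 0.000689, SE 0.28).

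The chains Col12a1 and Col16a1 belong to the FACIT collagens, which sit on fibres and do not form them. Col12a1 had 11.5, 11.9 and 11.8 FPKM in VHH-OD-PD-1-Fc, 9.04, 11.4 and 10.96 in VHH-PD-1-Fc, 37.3, 28.2 and 35.2 in VHH-OD-Fc and 19.8, 35.8 and 36.6 in Ctrl. Col16a1 had 19.6, 18.4 and 17.5 FPKM in VHH-OD-PD-1-Fc, 26.3, 16.7 and 15.3 in VHH-PD-1-Fc, 48.1, 43.2 and 43.9 in VHH-OD-Fc and 48.7, 44.7 and 41.9 in Ctrl. For both, all 6 libraries with the arm lay below all 6 without it. Col12a1 fell, at -1.27 (adjusted p = 0.000877, SE 0.20) in VHH-OD-PD-1-Fc and -1.42 (adjusted p = 0.000417, SE 0.20) in VHH-PD-1-Fc against Ctrl. Col16a1 fell, at -1.24 (adjusted p = 0.000305, SE 0.16) and -1.21 (adjusted p = 0.000291, SE 0.16) in the same comparisons. These calls held under all 24 other settings. Between VHH-OD-PD-1-Fc and VHH-PD-1-Fc the differences were 0.15 (adjusted p = 0.786, SE 0.20) for Col12a1 and -0.03 (adjusted p = 0.957, SE 0.16) for Col16a1. Against VHH-OD-Fc, Col12a1 was lower, at -1.59 (adjusted p = 0.000308, SE 0.20) in VHH-PD-1-Fc and -1.44 (adjusted p = 0.000531, SE 0.20) in VHH-OD-PD-1-Fc, and Col16a1 at -1.21 (adjusted p = 0.000374, SE 0.16) and -1.24 (adjusted p = 0.000355, SE 0.16).

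Of the other FACIT members, Col20a1 was called lower than Ctrl in both groups with the arm (-0.58 in VHH-OD-PD-1-Fc, -0.57 in VHH-PD-1-Fc). With the 3 libraries that stood apart left out the VHH-PD-1-Fc value was -0.38 (adjusted p = 0.0762). Col14a1, which coats collagen I fibres, was 1.82 to 2.23 FPKM in VHH-OD-PD-1-Fc, 1.53 to 4.58 in VHH-PD-1-Fc, 3.14 to 7.93 in VHH-OD-Fc and 2.52 to 5.49 in Ctrl. It was called lower in VHH-OD-PD-1-Fc than in VHH-OD-Fc (-0.92) and in no other comparison. Col8a1, a network collagen beneath endothelium, was 16.6 to 17.6 FPKM in VHH-OD-PD-1-Fc, 14.7 to 31.3 in VHH-PD-1-Fc, 23.2 to 37.6 in VHH-OD-Fc and 28.5 to 37.1 in Ctrl. It was lower than Ctrl in VHH-OD-PD-1-Fc (-0.85), a call lost without Ctrl replicate 2, at -0.74 (adjusted p = 0.0562), and was not called in VHH-PD-1-Fc (-0.51).

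Collagen VI forms beaded filaments between fibres from the products of Col6a1, Col6a2 and Col6a3. Col6a1 had 57.9, 60.02 and 60.8 FPKM in VHH-OD-PD-1-Fc, 42.9, 90.95 and 37.6 in VHH-PD-1-Fc, 103, 81.8 and 69.5 in VHH-OD-Fc and 60.9, 77.6 and 69.6 in Ctrl. Col6a2 had 21, 21.5 and 21.3 FPKM in VHH-OD-PD-1-Fc, 13.4, 30.1 and 13.8 in VHH-PD-1-Fc, 43.3, 35.95 and 29.4 in VHH-OD-Fc and 16.6, 34.7 and 29.7 in Ctrl. Col6a3 had 16.7, 16.4 and 16.3 FPKM in VHH-OD-PD-1-Fc, 8.03, 11.1 and 5.33 in VHH-PD-1-Fc, 30.97, 25.6 and 25.01 in VHH-OD-Fc and 11.7, 21.3 and 23.8 in Ctrl. VHH-PD-1-Fc replicate 2 was well above replicates 1 and 3 for Col6a1 and Col6a2 and less so for Col6a3. In VHH-PD-1-Fc against Ctrl, Col6a3 fell, at -1.12 (adjusted p = 0.00521, SE 0.26), while Col6a1 (-0.38, adjusted p = 0.264, SE 0.27) and Col6a2 (-0.51, adjusted p = 0.191, SE 0.31) did not pass. Without VHH-PD-1-Fc replicate 2 both were called lower, Col6a1 at -0.77 (adjusted p = 0.00372) and Col6a2 at -0.88 (adjusted p = 0.0205). None of the 3 passed in VHH-OD-PD-1-Fc relative to Ctrl (Col6a1 -0.21, Col6a2 -0.27, Col6a3 -0.13). The ratio of Col6a1 to Col6a3 FPKM was 3.47 to 3.73 in VHH-OD-PD-1-Fc, 5.34 to 8.21 in VHH-PD-1-Fc, 2.78 to 3.32 in VHH-OD-Fc and 2.92 to 5.203 in Ctrl. VHH-PD-1-Fc was above each other group without overlap, with p = 0.1 in each pair (exact permutation test, two-sided, the smallest possible). The longest transcripts have 4100 bases for Col6a1 and 10106 bases for Col6a3, and length trends were not removed from this ratio.

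Col23a1, a collagen anchored in the cell membrane, was low in all tumours and was the only collagen called higher in any comparison. Col23a1 had 1.56, 1.40 and 1.53 FPKM in VHH-OD-PD-1-Fc, 0.259, 0.132 and 0.172 in VHH-PD-1-Fc, 1.29, 1.39 and 0.810 in VHH-OD-Fc and 0.722, 0.671 and 0.751 in Ctrl. The VHH-PD-1-Fc libraries were below all others and the VHH-OD-PD-1-Fc libraries above all others, with VHH-OD-Fc between VHH-OD-PD-1-Fc and Ctrl and apart from both. At the estimated depth the lowest of these values, in VHH-PD-1-Fc replicate 2, stood for about 16.4 fragments. Col23a1 was higher in VHH-OD-PD-1-Fc than in Ctrl, at 0.54 (adjusted p = 0.00801, SE 0.13), and lower in VHH-PD-1-Fc than in Ctrl, at -0.53 (adjusted p = 0.00807, SE 0.13). The second call was lost with length and GC trends removed, at -0.23 (adjusted p = 0.177). Between VHH-OD-PD-1-Fc and VHH-PD-1-Fc it differed by 1.07 (adjusted p = 0.0085, SE 0.13), which understates the ratio of mean FPKM, 7.97, because 1 FPKM was added before the logarithm. That call was lost without VHH-OD-PD-1-Fc replicate 1, at 1.05 (adjusted p = 0.0712), and without replicate 3, at 1.06 (adjusted p = 0.0708). It was also lost with library quality weights, at 1.06 (adjusted p = 0.0643), and with VHH-OD-PD-1-Fc taken as a lone sample, at 1.07 (adjusted p = 0.8). In the last case 3 of all 14306 genes were called.

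The Col23a1 window in RefSeq (GRCm38.p6), shown for the 1 collagen called between the groups with the PD-1 arm, lies at chr11:51289670-51289969 on the + strand. Capitals mark the match to GGGCGG, which is on the opposite strand and so reads CCGCCC.
Col23a1: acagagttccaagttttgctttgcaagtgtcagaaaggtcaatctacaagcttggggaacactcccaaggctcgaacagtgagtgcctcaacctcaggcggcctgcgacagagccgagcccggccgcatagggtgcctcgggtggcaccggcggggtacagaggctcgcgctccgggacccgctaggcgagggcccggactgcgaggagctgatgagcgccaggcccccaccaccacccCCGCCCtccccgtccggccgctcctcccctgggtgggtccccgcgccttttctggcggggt
The Col23a1 window holds none of the other motifs on either strand.

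Between VHH-OD-Fc and Ctrl, 18 of the 23 collagens had a positive and 5 a negative fold change, with a median of 0.18. That of all genes was -0.02, and 6169 of the 14306 had a positive and 7981 a negative fold change. The 4 members of smallest p were Col23a1 (0.32), Col6a3 (0.55), Col1a2 (0.41) and Col4a5 (-0.47), each with an adjusted p of 1 by limma. At an unadjusted p under 0.05, 1 collagen (Col23a1) and 3.14% of all genes passed. With the 3 libraries that stood apart left out, the median of the collagens was 0.06. No collagen difference between VHH-OD-Fc and Ctrl passed the test over all genes.

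The direct comparison of VHH-OD-PD-1-Fc with VHH-PD-1-Fc asks what differs between tumours that both met a PD-1 arm, at 4.3 and 2.6 mg/kg. The fibrillar genes lay higher in VHH-OD-PD-1-Fc: 7 of 8 had a positive fold change, with a median of 0.62, and the libraries of those 7 did not overlap. The 5 basement membrane genes lay lower, with a median of -0.56, and 4 of them did not overlap. All genes tested had a median of 0.04, with 13.8% higher and 7.25% lower without overlap. Of the 14306 genes, 8279 had a positive and 6007 a negative fold change. Apart from Col23a1, none of these differences passed the test over all genes, although 11 of 23 collagens had an unadjusted p under 0.05, where 15.5% of all genes did. Col5a3 (0.79, adjusted p = 0.0635, SE 0.17), Col5a1 (0.63, adjusted p = 0.0968, SE 0.16) and Col6a3 (0.98, adjusted p = 0.106, SE 0.26) came nearest on the side of VHH-OD-PD-1-Fc. On the other side were Col4a2 (-0.56, adjusted p = 0.112, SE 0.15) and Col18a1 (-0.58, adjusted p = 0.143, SE 0.17). Col1a1 differed by 0.75 (adjusted p = 0.191, SE 0.26).

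**Figure D4:**
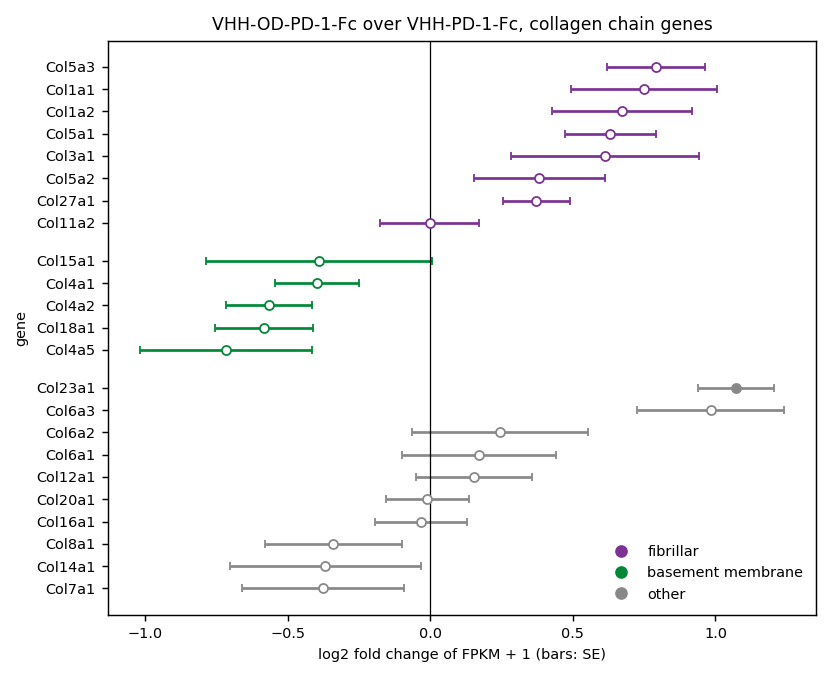
log2 fold change of FPKM + 1 between VHH-OD-PD-1-Fc and VHH-PD-1-Fc for each tested collagen gene, by class; bars are SE and a filled point marks an adjusted p under 0.05. Fibrillar points lie right of 0 except Col11a2, basement membrane points lie left of 0, and Col23a1 alone is filled.

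The plot of fold changes with their SE shows Col23a1 alone as called, and leaving out single libraries changed this set. Without Ctrl replicate 1, which enters through the shared estimate of spread, Col5a3, Col6a3 and Col4a2 were called besides Col23a1. There 0.86% of all genes were higher and 0.489% lower. Without VHH-PD-1-Fc replicate 3, Col5a1 and Col18a1 were called as well as Col23a1 (2.69% of all genes higher and 1.07% lower). Without VHH-PD-1-Fc replicate 1, Col15a1 was called as well as Col23a1 (2.21% and 1.01%). With the 3 libraries that stood apart left out, 6 collagens were called: Col23a1, Col5a2, Col5a3 and Col6a3 higher and Col4a1 and Col4a2 lower in VHH-OD-PD-1-Fc. There 2.22% of all genes were higher and 1.44% lower. In that fit Col5a3 was 0.89 (adjusted p = 0.0104) and Col4a2 was -0.59 (adjusted p = 0.0253). The choice of the 3 libraries rested in part on collagen values, so such calls are no separate evidence.

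The difference from additivity takes the log2 fold changes of VHH-PD-1-Fc and VHH-OD-Fc away from that of VHH-OD-PD-1-Fc, each over Ctrl. The doses in mg/kg differ between the groups, so the design is not a strict factorial one. No collagen was called, where 0.0909% of genes were called above and 0.021% below additivity by limma. At an unadjusted p under 0.05, 5 collagens and 11.9% of all genes passed. All 8 fibrillar genes had a positive value (median 0.25) and all 5 basement membrane genes a negative one (median -0.57), with a median of 0.06 over all genes. Of the 14306 genes, 8497 had a positive and 5809 a negative value. The 4 of smallest p were Col23a1 (0.75, adjusted p = 0.156, SE 0.19), Col18a1 (-0.76, adjusted p = 0.262, SE 0.24), Col4a2 (-0.57, adjusted p = 0.339, SE 0.21) and Col5a3 (0.63, adjusted p = 0.346, SE 0.24). Without the 3 libraries that stood apart, Col5a3 was called, at 0.99 (adjusted p = 0.0466). Those libraries were chosen in part by collagen values, so this call is no separate evidence.

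The make-up of the collagen transcripts, formed within each library and so free of library scaling, differed between the 2 groups with the PD-1 arm. Trends with transcript length or GC content that differ between libraries were not removed from the shares and ratios. Fibrillar genes held 61.2% to 61.4% of the summed collagen FPKM in VHH-OD-PD-1-Fc and 34.0% to 50.6% in VHH-PD-1-Fc. They held 50.03% to 60.9% in VHH-OD-Fc and 53.3% to 55.2% in Ctrl. Basement membrane genes held 17.97% to 18.1% in VHH-OD-PD-1-Fc, 27.7% to 37.2% in VHH-PD-1-Fc, 16.2% to 20.3% in VHH-OD-Fc and 18.4% to 22.4% in Ctrl. VHH-PD-1-Fc had the lowest fibrillar and the highest basement membrane share of all groups on average, and its basement membrane share did not overlap any other group. The mean fibrillar share was 61.3% ± 0.11 in VHH-OD-PD-1-Fc and 44.5% ± 9.08 in VHH-PD-1-Fc (SD, n = 3 each). In VHH-OD-Fc it was 57.3% ± 6.26, and in Ctrl 54.5% ± 1.06 (SD, n = 3 each). Its difference between VHH-OD-PD-1-Fc and VHH-PD-1-Fc had p = 0.1 (exact permutation test, two-sided, the smallest possible).

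**Figure D5:**
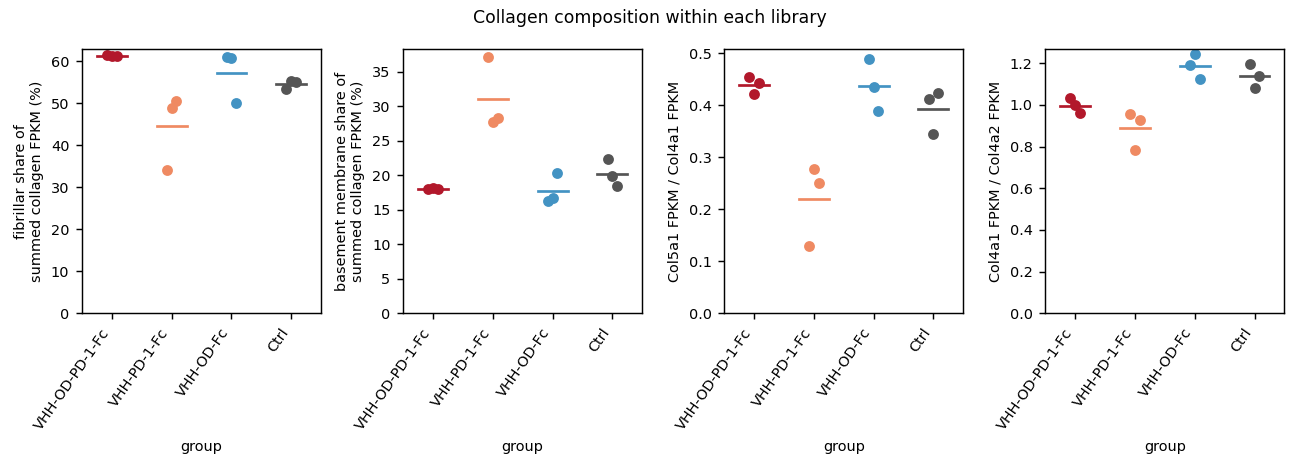
Fibrillar and basement membrane share of the summed collagen FPKM (percent) and the ratios of Col5a1 to Col4a1 and of Col4a1 to Col4a2 FPKM in each library; points are libraries and lines means of 3. VHH-PD-1-Fc has the highest basement membrane shares (27.7% to 37.2%) and the lowest Col5a1 to Col4a1 ratios (0.130 to 0.278), and the Col4a1 to Col4a2 ratio is lower in both groups with the PD-1 arm than in those without.

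The panels of composition also show single pairs of genes. The ratio of Col5a1 to Col4a1 FPKM was 0.421 to 0.454 in VHH-OD-PD-1-Fc, 0.130 to 0.278 in VHH-PD-1-Fc, 0.389 to 0.489 in VHH-OD-Fc and 0.344 to 0.423 in Ctrl. VHH-PD-1-Fc lay below the other groups without overlap (p = 0.1 in each pair, exact permutation test, two-sided). Col1a1 to Col4a1 was 6.66 to 6.88 in VHH-OD-PD-1-Fc, above each other group, and 1.70 to 5.03 in VHH-PD-1-Fc, 3.50 to 6.06 in VHH-OD-Fc and 3.97 to 4.31 in Ctrl. Col5a1 to Col1a1 was 0.0611 to 0.0682 in VHH-OD-PD-1-Fc and 0.0552 to 0.0763 in VHH-PD-1-Fc, below the 0.0782 to 0.111 of VHH-OD-Fc and 0.0835 to 0.104 of Ctrl. Col5a1 thus stood lower against Col1a1 in each library with the PD-1 arm than in each library without it. Their longest transcripts have 8406 and 5930 bases, and length trends were not removed. Of 84 such exact permutation tests (14 shares and ratios, 6 pairs of groups each) 47 gave the smallest possible p of 0.1, which is 0.179 after Benjamini-Hochberg adjustment over the 84.

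The enzymes and chaperones that build procollagen in the endoplasmic reticulum were examined as a list of 21 genes, 19 of them tested. Against Ctrl, 9 were lower and 1 was higher in VHH-PD-1-Fc (32.3% and 14.6% of all genes), and 8 were lower and none higher in VHH-OD-PD-1-Fc (27.1% and 15.1% of all genes). P4ha3, a subunit of a prolyl 4-hydroxylase, fell, at -1.18 (adjusted p = 0.000147, SE 0.14) in VHH-PD-1-Fc and -0.52 (adjusted p = 0.0114, SE 0.14) in VHH-OD-PD-1-Fc. The prolyl 3-hydroxylase gene P3h1 fell, at -0.85 (adjusted p = 0.000271, SE 0.11) and -0.79 (adjusted p = 0.000487, SE 0.11), and P3h3 at -0.80 and -0.60. Colgalt1, which adds galactose to hydroxylysine, fell, at -1.10 (adjusted p = 0.00148, SE 0.20) in VHH-OD-PD-1-Fc and -0.98 (adjusted p = 0.00243, SE 0.20) in VHH-PD-1-Fc, and Mia3, needed to export procollagen, fell in both. Crtap, which forms a complex with the P3h1 product, rose in VHH-PD-1-Fc, at 0.50 (adjusted p = 0.0135, SE 0.14), with 81.9 to 122.9 FPKM there and 61.3 to 75.5 FPKM in Ctrl. In VHH-OD-PD-1-Fc Crtap did not pass, at 0.04 (adjusted p = 0.816, SE 0.14). Plod1, a lysyl hydroxylase, fell in VHH-OD-PD-1-Fc (-0.46) and was not called in VHH-PD-1-Fc (-0.12). Serpinh1, the collagen chaperone HSP47, named here for its role, had -0.25 (adjusted p = 0.0511, SE 0.10) in VHH-PD-1-Fc and -0.08 (adjusted p = 0.542, SE 0.10) in VHH-OD-PD-1-Fc, and neither passed. Against VHH-OD-Fc, 11 of the 19, Serpinh1 among them, were lower and Crtap higher in VHH-PD-1-Fc, with 28.4% of all genes lower. In VHH-OD-PD-1-Fc 8 were lower than in VHH-OD-Fc, with 24.5% of all genes lower. None was called by limma between VHH-OD-PD-1-Fc and VHH-PD-1-Fc, in VHH-OD-Fc against Ctrl or in the difference from additivity, where 4, 0 and 1 genes had an unadjusted p under 0.05. The 4 genes of smallest p, with their log2 fold changes, follow for the other comparisons. In VHH-PD-1-Fc against VHH-OD-Fc they were P4ha3 (-1.15), P3h3 (-0.85), P3h1 (-0.66) and Mia3 (-0.57). In VHH-OD-PD-1-Fc against VHH-OD-Fc they were P3h1 (-0.60), Colgalt1 (-1.02), P3h3 (-0.64) and Fkbp14 (-0.61). In VHH-OD-PD-1-Fc against VHH-PD-1-Fc they were P4ha3 (0.67), Creb3l1 (0.84), Plod1 (-0.34) and Crtap (-0.45). In VHH-OD-Fc against Ctrl they were Plod3 (-0.20), P3h1 (-0.19), P3h4 (0.15) and Creb3l1 (0.21). In the difference from additivity they were P4ha3 (0.70), Mia3 (0.34), Crtap (-0.41) and Creb3l1 (0.64).

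Of 18 genes that process, crosslink or organise collagen outside the cell, 15 were tested. In VHH-PD-1-Fc 8 were lower than Ctrl and none higher (32.3% and 14.6% of all genes). The 4 of smallest p were Adamts14, a procollagen peptidase (-0.59, adjusted p = 0.00847, SE 0.15), the crosslinking oxidases Loxl4 (-1.11, adjusted p = 0.00876, SE 0.28) and Loxl2 (-0.88, adjusted p = 0.011, SE 0.23), and the proteoglycan Dcn (-1.16, adjusted p = 0.0127, SE 0.32). Dcn and Lum are in this list and among the fibroblast markers. In VHH-OD-PD-1-Fc 2 were lower than Ctrl, Loxl4 (-0.999) and the fibril-binding proteoglycan Fmod (-1.19), a smaller share than the 27.1% of all genes. The next by p in VHH-OD-PD-1-Fc, Loxl2 (-0.63, adjusted p = 0.0506, SE 0.23) and Lox (-0.84, adjusted p = 0.0727, SE 0.35), did not pass. Against VHH-OD-Fc, 9 were lower in VHH-PD-1-Fc and 5 in VHH-OD-PD-1-Fc (28.4% and 24.5% of all genes), and none was higher. None was called by limma between VHH-OD-PD-1-Fc and VHH-PD-1-Fc, in VHH-OD-Fc against Ctrl or in the difference from additivity, where 3, 0 and 1 genes had an unadjusted p under 0.05. The 4 genes of smallest p, with their log2 fold changes, follow for the other comparisons. In VHH-PD-1-Fc against VHH-OD-Fc they were Dcn (-1.78), Adamts2 (-0.98), Loxl2 (-1.05) and Lum (-1.59). In VHH-OD-PD-1-Fc against VHH-OD-Fc they were Fmod (-1.43), Dcn (-1.16), Loxl2 (-0.81) and Lox (-1.01). In VHH-OD-PD-1-Fc against VHH-PD-1-Fc they were Adamts14 (0.47), Adamts2 (0.55), Loxl1 (0.42) and Dcn (0.63). In VHH-OD-Fc against Ctrl they were Adamts2 (0.41), Dcn (0.63), Lum (0.72) and Adamts14 (-0.25). In the difference from additivity they were Adamts14 (0.72), Bmp1 (-0.48), Loxl1 (0.29) and Loxl4 (0.44).

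Collagen receptors formed a list of 10, with 8 tested. Against Ctrl, 2 were lower and none higher in VHH-OD-PD-1-Fc (27.1% and 15.1% of all genes), and 4 were lower and 1 higher in VHH-PD-1-Fc (32.3% and 14.6%), so the share lower in VHH-OD-PD-1-Fc was close to that of all genes. Ddr2, a receptor tyrosine kinase for fibrillar collagen, fell, at -1.15 (adjusted p = 0.0006, SE 0.17) in VHH-OD-PD-1-Fc and -1.23 (adjusted p = 0.00036, SE 0.17) in VHH-PD-1-Fc against Ctrl. Mrc2, which takes up collagen for breakdown, fell, at -0.52 (adjusted p = 0.0139, SE 0.14) and -0.72 (adjusted p = 0.00231, SE 0.14). In VHH-PD-1-Fc the integrin genes Itga2 (-0.86) and Itgb1 were also lower, and Itga1, a partner of Itgb1 that binds collagen IV, was higher (0.55, adjusted p = 0.0203, SE 0.17). Itga1 was 2.55 to 4.97 FPKM in VHH-PD-1-Fc and 1.74 to 2.24 FPKM in Ctrl. None of the integrin genes passed in VHH-OD-PD-1-Fc relative to Ctrl. Against VHH-OD-Fc, Ddr2 and Mrc2 were lower in VHH-OD-PD-1-Fc, while in VHH-PD-1-Fc Ddr2, Mrc2, Itga2 and Itgb1 were lower and Itga1 higher (24.5% of all genes were lower in VHH-OD-PD-1-Fc and 28.4% in VHH-PD-1-Fc). None was called by limma between VHH-OD-PD-1-Fc and VHH-PD-1-Fc, in VHH-OD-Fc against Ctrl or in the difference from additivity, where 2, 0 and 0 genes had an unadjusted p under 0.05. The 4 genes of smallest p, with their log2 fold changes, follow for the other comparisons. In VHH-PD-1-Fc against VHH-OD-Fc they were Ddr2 (-1.21), Mrc2 (-0.89), Itga1 (0.71) and Itga2 (-1.09). In VHH-OD-PD-1-Fc against VHH-OD-Fc they were Ddr2 (-1.13), Mrc2 (-0.69), Itgb1 (-0.50) and Ddr1 (-0.39). In VHH-OD-PD-1-Fc against VHH-PD-1-Fc they were Itga1 (-0.52), Itga2 (0.71), Mrc2 (0.20) and Itga10 (-0.53). In VHH-OD-Fc against Ctrl they were Lair1 (-0.39), Mrc2 (0.17), Itga1 (-0.16) and Itga2 (0.23). In the difference from additivity they were Itga1 (-0.36), Itga2 (0.47), Lair1 (0.42) and Itga10 (-0.51).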

How the data were processed

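The values are FPKM per gene symbol, deposited by the authors as 1 table of 41009 symbols and 12 libraries (paired reads of 150 bases, per the labels' protocols). Per the submitters' processing notes, reads went through HISAT2 2.2.1 and fastp 0.22.0 and the build is named GRCh38, a human build, although the symbols are mouse; the counting tool, annotation and strand setting are not stated in these sources. Counts were not recovered for the collagens, so no count test was run. Depth was estimated from the steps of low FPKM values in 18383 genes with 1 annotated transcript (GENCODE M21): 95.8% to 96.7% of them were whole steps to within 0.05, and a step was taken as 1/2 fragment.

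Genes of at least 1 FPKM in at least 3 libraries (14306) were tested on log2(FPKM + 1) with limma 3.58.1 (R 4.3.3, empirical Bayes with trend). The fit took all 12 libraries and 4 group means (8 residual degrees of freedom). Tests were two-sided, with Benjamini-Hochberg adjustment over all genes and a threshold of 0.05. Adding 1 FPKM shrinks the fold change of low genes. On simulated data for VHH-PD-1-Fc against Ctrl over 14306 genes, 71% of genes changed by a log2 of 1 and 97% of those changed by 2 were recovered. Only 100 genes were changed by each size, and each gene had the same SD in all groups. In these data many more genes were called and the median SD ran from 0.0747 to 0.247 between groups, so these rates do not carry over. Transcript length and GC content were taken from GENCODE M21, for 13533 of the 14306 genes and 23 of 23 tested collagens. Python 3.11.15, pandas 2.3.3 and matplotlib 3.10.9 were used.

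The members, gene lists, cell type markers and rule for named genes were chosen with earlier results of these data known, and the shares and ratios were added after the values were seen. By that rule, values in every library are given for 12 set genes, for the 4 collagens of smallest p in each comparison and for any called against its class, and the 4 genes of smallest p are named for each pathway list. The series text describes another tumour model and agents that are in no sample label, and it was not used. The same replicate number did not pair libraries: correlations of deviations were -0.154 to 0.184 for same-numbered and -0.465 to 0.434 for other pairs.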

Additional observations from a re-analysis of the deposited data

How the results depend on the processing

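Over 24 other settings (12 of them leaving out a library) none of the 62 called collagen values changed sign, and 30 kept their call in every setting that tested the gene. Some of these settings could not change a sign. The replicate block, the fit of only the groups compared and any fit without a library of another group leave the fold change as it was. The setting with a mean FPKM of at least 5 left out low genes, among them Col11a2, Col23a1 and Col27a1. Leaving out a library in turn gave 14 to 17 called collagens in VHH-PD-1-Fc against Ctrl, 11 to 15 in VHH-OD-PD-1-Fc relative to Ctrl, 9 (without VHH-OD-PD-1-Fc replicate 1) to 20 in VHH-OD-PD-1-Fc against VHH-OD-Fc, with 10 without VHH-OD-PD-1-Fc replicate 3 or VHH-OD-Fc replicate 1, 0 to 4 in VHH-OD-PD-1-Fc against VHH-PD-1-Fc and 14 to 16 in VHH-PD-1-Fc against VHH-OD-Fc. The range was 0 to 0 in VHH-OD-Fc against Ctrl and in the difference from additivity. The shares of all genes called lower moved too. They were 26% to 33.2% in VHH-PD-1-Fc against Ctrl and 19.8% to 30.9% in VHH-OD-PD-1-Fc relative to Ctrl. Against VHH-OD-Fc they were 17.6% to 27.9% in VHH-OD-PD-1-Fc and 21.5% to 30.3% in VHH-PD-1-Fc. In VHH-OD-PD-1-Fc against VHH-PD-1-Fc, 0.0489% to 2.69% of all genes were higher and 0.014% to 1.07% lower. With length and GC trends removed, 8 collagens instead of 14 were called in VHH-OD-PD-1-Fc relative to Ctrl (17.4% of all genes lower and 16.6% higher). Against VHH-OD-Fc they were 8 instead of 16 (16.5% of all genes lower and 15.7% higher). Of these 8, 7 were lower and Col23a1 higher, where none had been higher. In VHH-PD-1-Fc against Ctrl, 10 collagens were lower and Col18a1 higher, instead of 15 lower (18.7% of all genes lower and 19.2% higher). The median of the collagens was -0.45 there instead of -0.74. In VHH-PD-1-Fc against VHH-OD-Fc 12 were lower instead of 16 (16.8% of all genes lower and 17% higher). With VHH-OD-PD-1-Fc taken as a lone sample, far fewer collagens and far fewer of all genes were called against Ctrl and VHH-OD-Fc. Against VHH-PD-1-Fc the call of Col23a1 was lost. That fit has fewer samples by construction. Library quality weights gave 0 instead of 1 in VHH-OD-PD-1-Fc against VHH-PD-1-Fc. They gave 21 instead of 14 in VHH-OD-PD-1-Fc relative to Ctrl and 22 instead of 16 against VHH-OD-Fc. Calls rose over all genes too with these weights, to 43.5% lower and 25.7% higher relative to Ctrl (27.1% and 15.1% in the main fit). Against VHH-OD-Fc the shares of all genes were 37.1% and 23.9% (24.5% and 15.4% in the main fit). With 3 libraries left out together, 6 were called in VHH-OD-PD-1-Fc against VHH-PD-1-Fc (2.22% of all genes higher and 1.44% lower). For the difference from additivity 1 was called (0.287% of all genes above and 0.105% below). The cause was not tested. With a replicate block, which the numbers do not warrant, the counts were 15, 14, 13, 1 and 16 in the order of the comparisons named first. They were 0 in the remaining 2. In the same order, 30.9%, 25.9%, 23.4%, 0.0629% and 27.4% of all genes were lower. Those higher were 13.7%, 14.3%, 14.7%, 0.133% and 13.5%. With only the groups compared in the fit, 10 instead of 15 collagens were called in VHH-PD-1-Fc against Ctrl (Col3a1, Col27a1, Col4a1, Col20a1 and Col23a1 were lost), with 18.1% of all genes lower instead of 32.3%. That fit gave 15 in VHH-OD-PD-1-Fc relative to Ctrl (33.8% of all genes lower and 19.2% higher). Against VHH-OD-Fc it gave 21 instead of 16 (34.1% of all genes lower and 21.9% higher). For VHH-PD-1-Fc against VHH-OD-Fc it gave 14, with 17% of all genes lower instead of 28.4%. It was not run for additivity, which needs all 4.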

Other observations

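Of the 21 collagen chain genes under the filter, 3 reached 1 FPKM in any library. Col8a2, a network collagen of the cornea and vessels, did so in VHH-PD-1-Fc replicate 3 alone (1.32 FPKM). Col28a1, known from peripheral nerve, did so in VHH-OD-Fc replicate 2 alone (1.33 FPKM), the library with the highest skeletal muscle markers. Col9a3, a chain of the FACIT collagen of cartilage, reached 1.45 and 1.63 FPKM in Ctrl libraries. The means of the 21 genes over all libraries ran between 0.0134 FPKM (Col22a1) and 0.718 FPKM (Col9a3).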
